A study of Mus musculus with 45 samples.

Results

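Forelimb buds kept for 3 h in 50 µM bisphenol A were compared with forelimb buds kept for 3 h in 10 µM of the same compound, which asks what the higher dose changed beyond the lower one at the shortest exposure of the series. The comparison holds 10 of the 45 libraries of the series, 5 at each dose, chosen by the dose and time in their titles. All were made from CD1 mice, an outbred stock, at gestation day 13: excised forelimbs were pooled, male and female limbs shared a bottle, and the limbs were cultured whole in BGJb medium under a gas mixture rich in oxygen. Both groups carried bisphenol A, and the 5 libraries of limbs given dimethyl sulfoxide alone for 3 h (the vehicle group) are used as the background level. The 5 libraries at each of 10 and 50 µM after 24 h and after 48 h of culture give the same dose comparison at later times. The labels do not tie replicates to litters or days of culture. The p-values given here therefore weigh differences against the scatter of these libraries, part of which may be technical. In whole limbs, fewer cells of a type and less RNA per cell cannot be told apart.

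Bisphenol A is a monomer of polycarbonate plastics and epoxy resins that binds estrogen receptors weakly. A limb bud at this stage is mesenchyme condensing into cartilage under a thin ectoderm, with muscle, vessels and nerves inside it. Several of the gene groups below have well-known switches. Cells sense sterols in the endoplasmic reticulum: when membrane sterol falls, INSIG proteins release SCAP, which carries the SREBP transcription factors to the Golgi for cleavage, and the freed factors switch on sterol and fatty acid genes through sterol regulatory elements, usually with NF-Y bound to a CCAAT box nearby. Sterol synthesis also matters to the limb because Hedgehog proteins carry cholesterol and because loss of Dhcr7 function causes limb malformations. Tubulin messenger RNAs (mRNAs) are degraded when free tubulin subunits accumulate. Id genes are direct targets of bone morphogenetic proteins (BMPs), which pattern the limb and its cartilage.

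Genes of cholesterol synthesis form the largest group with a higher level at 50 µM, so the bases before a RefSeq start of 5 of them are shown from RefSeq (GRCm38.p6), each 150 bases long, 5′ to 3′ on the gene's strand. Capitals mark each CCAAT box (CCAAT, or ATTGG where it lies on the opposite strand) and, in Hmgcs1, a sterol regulatory element (TCACCCCAC). The stretches lie at chr13:119690201-119690350 (Hmgcs1, plus strand), chr13:8885456-8885605 (Idi1, plus strand), chr10:76531455-76531604 (Lss, plus strand), chr5:4104698-4104847 (Cyp51, minus strand) and chr7:143830064-143830213 (Dhcr7, plus strand). The start used for Dhcr7 lies inside its gene model, and the 2 other RefSeq windows of this gene, at the start of the model, held no CCAAT.
Hmgcs1: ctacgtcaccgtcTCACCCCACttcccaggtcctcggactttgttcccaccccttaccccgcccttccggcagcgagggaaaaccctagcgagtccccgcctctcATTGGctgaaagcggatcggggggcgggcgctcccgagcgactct
Idi1: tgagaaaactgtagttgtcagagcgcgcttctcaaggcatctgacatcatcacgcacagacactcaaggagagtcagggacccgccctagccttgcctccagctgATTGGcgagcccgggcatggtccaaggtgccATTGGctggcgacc
Lss: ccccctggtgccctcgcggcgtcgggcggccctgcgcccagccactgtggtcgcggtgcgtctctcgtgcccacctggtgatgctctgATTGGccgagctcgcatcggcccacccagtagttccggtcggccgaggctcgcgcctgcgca
Cyp51: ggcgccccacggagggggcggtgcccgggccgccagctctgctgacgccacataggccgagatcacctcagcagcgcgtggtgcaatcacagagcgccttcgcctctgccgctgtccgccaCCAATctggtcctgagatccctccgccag
Dhcr7: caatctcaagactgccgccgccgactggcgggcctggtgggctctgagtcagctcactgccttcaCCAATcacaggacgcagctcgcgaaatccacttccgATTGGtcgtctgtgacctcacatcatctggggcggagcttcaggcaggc

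Of the 21 genes listed for cholesterol synthesis, 16 had a window of 250 bases before to 50 after a start in the table. CCAAT, searched on both strands, stood in at least 1 window of 15 of these 16 genes (93.8%) against 11096 of all 27025 genes (41.1%). The sterol regulatory element, searched as TCACNCCAC on both strands, stood in Hmgcs1 alone (6.25% of the 16) against 1.44% of all genes. The match began 137 bases before the Hmgcs1 start. Other spellings of the element were not searched, so the other genes are not shown to lack it. The shorter CCACG, part of the element that responds to unfolded proteins, stood in 62.5% of the 16 genes and in 35.5% of all genes. Genes of sterol regulation and uptake held CCAAT in 64.3% of 14 genes, and endoplasmic reticulum chaperones in 94.1% of 17. Some genes have more than 1 window: counted by window, CCAAT stood in 15 of 19 for cholesterol synthesis (78.9%) against 37.4% of all windows. A match to these letters is a description of the window only.

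Several facts about the libraries bear on the results. A duration tag of the 5 libraries at 50 µM gives 24 hours where the titles give 3 h, and the titles were followed. On the axis that separates culture times among all 45 libraries, these 5 lay between -58.3 and -48.9, the vehicle libraries of 3 h between -59.4 and -45.3, and all libraries of 24 h between 3.99 and 20.2. Total counts ran from 18070414 to 22471690 at 10 µM and from 18935484 to 24278672 at 50 µM. Replicate 3 at 10 µM stood apart, at 64.5 on the first principal component (27.5% of the variance) where the next library lay at 5.01. Its short genes were read relatively high and its long genes low, by a median of 0.27 and -0.20 (log2) over the 5662 shortest and the 5661 longest genes tested. Replicate 4 at 10 µM held 1 count on 4 Y-linked genes, where the others held 1305 to 3999, although the labels describe male and female limbs together. Counts of called genes are therefore also given without these libraries.

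As a check of the tissue, Tbx5, the forelimb T-box factor, averaged 299 CPM (counts scaled to a common library size, not to gene length) at 10 µM and 304 CPM at 50 µM. Its hindlimb counterpart Tbx4 averaged 20.8 and 22.0 CPM, and the limb mesenchyme factor Prrx1 526 and 519 CPM. Of 16984 genes tested with edgeR, 21 (0.124%) passed an adjusted p of 0.05 and are said here to be called. Called genes numbered 14 higher at 50 µM (0.0824% of those tested) and 7 lower (0.0412%), and with upper-quartile in place of TMM scaling 12 and 3. The median log2 difference over all genes was 0.00, with 8582 positive and 8402 negative. At an unadjusted p under 0.05 stood 563 genes higher (3.31%) and 614 lower (3.62%). In 167 genes (0.983%) every 50 µM library lay above every 10 µM library, and in 170 (1%) below.

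The 14 genes that rose included the cholesterol synthesis enzymes Idi1, Dhcr7, Cyp51, Lss and Sqle, the fatty acid desaturase Scd1, the transcriptional repressors Snai1 and Snai2, the BMP target Id2, the retinol dehydrogenase Rdh11, the kinase Cdkl3 and the mitochondrial ribosomal RNA mt-Rnr1. Those that fell were 4 tubulins (Tuba1a, Tuba1b, Tubb2a and Tubb2b), the splicing factor Srsf3, the hypoxia-inducible Ankrd37 and the noncoding Snhg4. In all 21 the libraries of the doses did not overlap. All 21 kept their direction in 23 other settings, which groups without overlap largely fix in advance. The number called depended on the model and on single libraries. With all 10 libraries it was 0 when the replicate number was added to the fit as a block. It was 7, with 6 of the 21 among them, when the level of Y-linked genes was added. The number was 44 without 10 µM replicate 3, 15 without 10 µM replicate 4, and 24 without both. Leaving out 10 µM replicate 1, 2 or 5 gave 4, 10 and 6 calls. Leaving out 50 µM replicate 1, 2, 3, 4 or 5 gave 4, 4, 15, 7 and 8. Dhcr7 and Cyp51 stayed called in all 10 of these fits, and 20 of the 21 genes were called without 10 µM replicate 3, Snhg4 being the exception (adjusted p = 0.0611). Of the 21, 8 missed the threshold without 10 µM replicate 4: mt-Rnr1 and Tubb2b (adjusted p = 0.0513 each), Srsf3 (0.0550), Sqle (0.0677), Cdkl3 and Ankrd37 (0.0913 each), and Rdh11 and Snhg4 (0.0947 each). Without both, Sqle (0.0695), Rdh11 (0.0612), Cdkl3 (0.117), Ankrd37 (0.126) and Snhg4 (0.216) missed it.

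**Figure D1:**
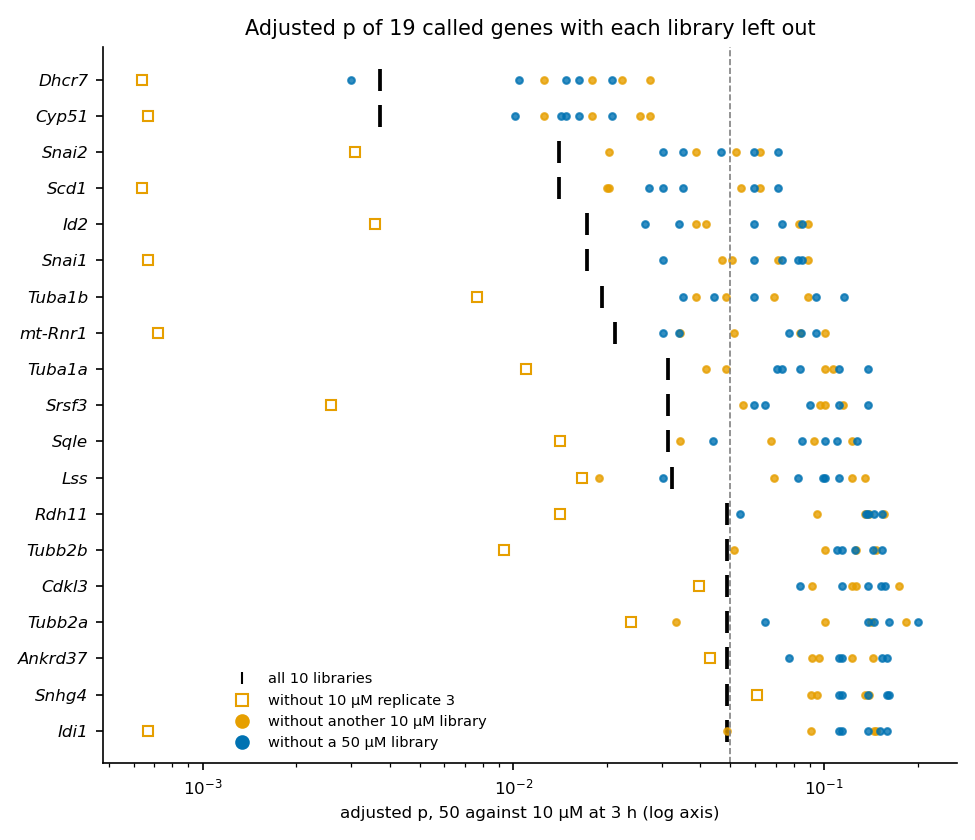
Adjusted p (edgeR, log axis) of 19 called genes in 10 fits that leave out 1 library each, with the dashed line at 0.05 and open squares for the fit without 10 µM replicate 3. Points of Dhcr7 and Cyp51 all lie under the line, while each other gene drawn has fits on both sides of it or, for Snhg4, none under it.

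Cholesterol synthesis was the group with the most genes called. Of 21 enzymes tested, 6 rose and none fell, against 0.0824% called higher over all genes. A higher fitted level at 50 µM was seen in 20, and 12 had libraries that did not overlap, against 0.983% of all genes in that direction. The median log2 difference of the 21 was 0.45, against 0.00 over all genes. In the higher direction 15 had an unadjusted p under 0.05, and in the lower direction 1, Ggps1. The same shares apply to the lists below, with 0.0412% called and 1% not overlapping in the lower direction.

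In the early, mevalonate part of the pathway, Hmgcs1 joins acetoacetyl-CoA and acetyl-CoA. Mean levels of Hmgcs1 were 212 ± 31.1 CPM at 10 µM and 294 ± 20.2 CPM at 50 µM (SD, n = 5 each), a log2 difference of 0.48 ± 0.10 (SE) with an adjusted p of 0.0963. It missed the threshold with all 10 libraries, although the doses did not overlap, and passed it without 10 µM replicate 3 (adjusted p = 0.025). The kinases and decarboxylase that follow, Mvk, Pmvk and Mvd, differed by 0.17, 0.17 and 0.46 and were not called. Acat2, which makes acetoacetyl-CoA, differed by 0.29 ± 0.09 (adjusted p = 0.470).

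Idi1, which interconverts the isoprenoid building blocks, had the largest difference of the pathway. Its levels in replicates 1 to 5 were 23.6, 28.1, 13.5, 29.1 and 25.8 CPM at 10 µM and 46.8, 39.3, 48.2, 45.2 and 43.9 CPM at 50 µM. The lowest value, 13.5, belonged to the 10 µM library that stood apart, and the other 4 libraries at that dose lay between 23.6 and 29.1. The log2 difference was 0.89 ± 0.16 with an adjusted p of 0.0486, and Idi1 was called in 2 of the 10 fits that leave out a library. Further down, Ggps1 diverts isoprenoids to geranylgeranyl groups rather than to sterol, and its difference was -0.23 ± 0.09 (adjusted p = 0.684). Fdps, which makes farnesyl diphosphate, was read at only 8.59 ± 1.45 and 10.3 ± 2.88 CPM and was not called (log2 difference 0.26 ± 0.19).

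Squalene is made by Fdft1, oxidised by Sqle and closed into lanosterol by Lss. For Fdft1 the means were 104 ± 11.8 and 134 ± 11.9 CPM, without overlap and not called (log2 difference 0.37 ± 0.09, adjusted p = 0.224). Sqle read 119, 143, 119, 123 and 132 CPM in the 10 µM libraries and 181, 163, 166, 190.1 and 173 CPM in the 50 µM libraries. Lss read 52.8, 60.3, 50.6, 66.5 and 50.5 CPM and 96.6, 87.0, 74.6, 86.6 and 78.1 CPM in the same order. Both genes rose: the highest 10 µM library lay below the lowest 50 µM library, by a wider margin in Sqle (143 against 163) than in Lss (66.5 against 74.6). The log2 differences were 0.45 ± 0.07 for Sqle (adjusted p = 0.0314) and 0.59 ± 0.10 for Lss (adjusted p = 0.0324). Each was called in 3 of the 10 fits that leave out a library.

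Beyond lanosterol, Cyp51 removes its first methyl group, and Dhcr7 reduces a ring double bond late in the pathway. Cyp51 read 124, 137, 120.1, 124 and 125 CPM at 10 µM and 224, 175, 204, 197 and 184 CPM at 50 µM. Dhcr7 read 66.2, 75.8, 73.5, 70.3 and 73.2 CPM at 10 µM and 121, 108, 103, 119.8 and 109 CPM at 50 µM. Both rose, with a clear gap between the doses and with 10 µM replicate 3 inside or close to the range of its group. Log2 differences were 0.64 ± 0.08 for Cyp51 (adjusted p = 0.00373) and 0.64 ± 0.07 for Dhcr7 (adjusted p = 0.00373). Their gene models (mm10) lie at chr5:4081145-4104746 (ENSMUSG00000001467) and chr7:143823145-143848410 (ENSMUSG00000058454). With any 1 library left out the largest adjusted p of each was 0.0276. Of the enzymes between them, Msmo1 missed the threshold (log2 difference 0.50 ± 0.09, adjusted p = 0.0520) and passed it without 10 µM replicate 3 (0.027). Nsdhl (0.43 ± 0.10), Sc5d (0.33 ± 0.09), Hsd17b7 (0.55 ± 0.16), Tm7sf2 (0.27 ± 0.13) and Ebp (0.20 ± 0.14) had positive differences and were not called.

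Without 10 µM replicate 3, 11 of the 21 enzymes were called, all higher, and without replicate 4 of that dose 5 were. Leaving out both gave 7. In 6 of the 10 fits that leave out a library, those without 10 µM replicate 1 or 5 or 50 µM replicate 1, 2, 4 or 5, only 3 enzymes were called. The mean log2 level of the 21 enzymes, taken relative to the vehicle mean, ran from 0.21 to 0.40 in the 10 µM libraries and from 0.59 to 0.82 in the 50 µM libraries. Vehicle libraries ran from -0.06 to 0.11, so the 3 groups did not overlap on this mean.

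**Figure D2:**
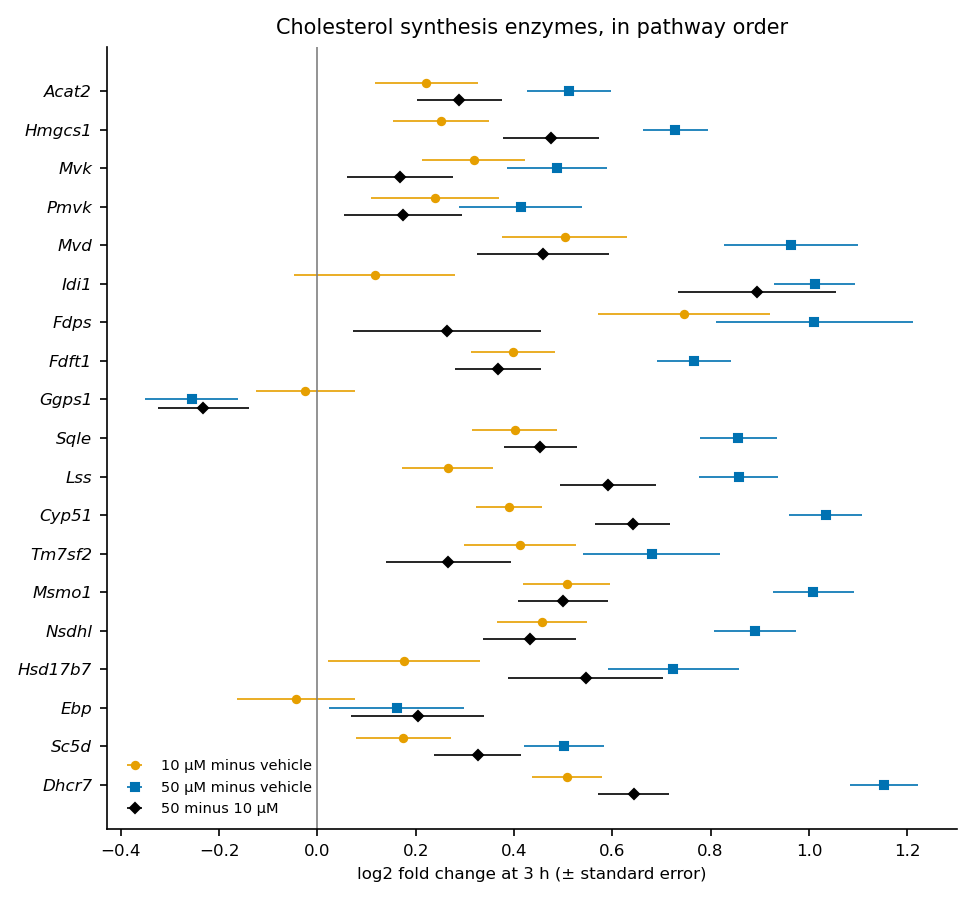
Fitted log2 differences (± SE) of 19 cholesterol enzymes in pathway order, for 10 µM minus vehicle (orange circles), 50 µM minus vehicle (blue squares) and 50 minus 10 µM (black diamonds) at 3 h. All black diamonds but that of Ggps1 lie to the right of 0, and the blue squares reach from -0.26 for Ggps1 to 1.15 for Dhcr7.

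Genes that sense or take up sterol form the next list. Of 18 tested, 14 had a positive difference, 5 did not overlap, and the median was 0.13. Srebf2, which encodes the SREBP that drives sterol genes, averaged 281 ± 19.3 CPM at 10 µM and 362 ± 25.9 CPM at 50 µM (log2 difference 0.36 ± 0.07, adjusted p = 0.0887). Insig1, which holds SREBP in the endoplasmic reticulum and is itself an SREBP target, differed by 0.53 ± 0.13 (adjusted p = 0.198), and the sterol carrier Stard4 by 0.52 ± 0.11 (adjusted p = 0.137). Srebf2, Insig1 and Stard4 did not overlap between the doses and were not called. The other SREBP gene, Srebf1, differed by 0.13 ± 0.07.

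On the export side, none of 13 genes for sterol efflux and targets of the sterol receptor LXR was called, and their median was -0.00. The cholesterol exporter Abcg1 had the smallest p of that list: 14.3 ± 1.85 CPM at 10 µM and 9.87 ± 1.42 CPM at 50 µM (log2 difference -0.53 ± 0.13, adjusted p = 0.252). Abca1, the other main exporter, differed by -0.06 ± 0.18.

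Fatty acid synthesis shares the SREBP switch. Of its 18 genes 16 were tested: 1 rose, 14 had a positive difference, 8 did not overlap, and the median was 0.24. Scd1, which puts the first double bond into saturated fatty acids, was the gene called. In replicates 1 to 5 Scd1 stood at 77.1, 87.5, 52.6, 82.1 and 74.8 CPM at 10 µM and at 155, 135, 131, 129 and 118 CPM at 50 µM. Again 10 µM replicate 3 was the lowest of its group, and the lowest 50 µM library, 118, lay above the highest at 10 µM. The log2 difference was 0.83 ± 0.12 (adjusted p = 0.0140), 0.73 without 10 µM replicate 3, and Scd1 was called in 6 of the 10 fits that leave out a library. The list had 3 genes called without 10 µM replicate 3, and without 10 µM replicate 1 or 5 or 50 µM replicate 1 or 2, none. The desaturase Fads2 (0.44 ± 0.09, adjusted p = 0.0951), the elongase Elovl6 (0.42 ± 0.09, 0.0963) and the fatty acid synthase Fasn (0.36 ± 0.07, 0.100) did not overlap between the doses and were not called. Acly, which supplies cytosolic acetyl-CoA, differed by 0.42 ± 0.11 (adjusted p = 0.260). Among 18 genes for lipid uptake and oxidation the smallest p was that of the fatty acid carrier Cd36, with a difference of 0.46 ± 0.17 (adjusted p = 0.672).

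**Figure D3:**
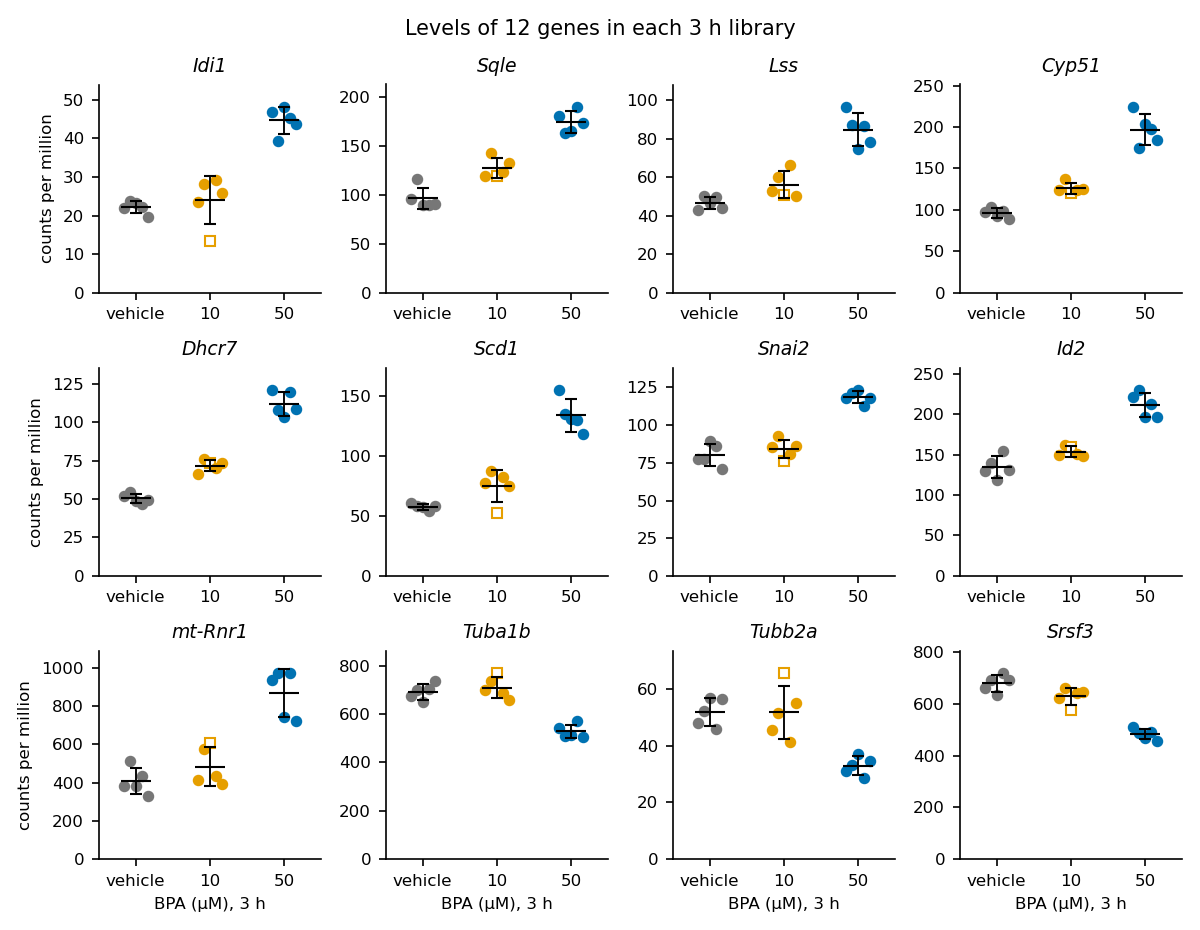
CPM of 12 genes in each library of the vehicle, 10 µM and 50 µM groups at 3 h, with bars for the mean ± SD of 5 libraries and open squares for 10 µM replicate 3. In the sterol and lipid genes the 50 µM libraries lie above both other groups, and in Tuba1b, Tubb2a and Srsf3 they lie below the 10 µM libraries.

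Snai1 and Snai2 encode zinc-finger repressors that drive epithelial to mesenchymal transition and are expressed in limb mesenchyme. Snai1 read 73.2, 63.2, 82.2, 67.8 and 74.1 CPM at 10 µM and 100.5, 105, 98.8, 105 and 105 CPM at 50 µM. Snai2 read 85.3, 92.6, 76.1, 81.0 and 86.3 CPM at 10 µM and 118, 121, 123, 113 and 118 CPM at 50 µM. Both rose with no overlap. The log2 differences were 0.51 ± 0.08 for Snai1 (adjusted p = 0.0173) and 0.49 ± 0.07 for Snai2 (adjusted p = 0.0140). Snai1 was called in 3 and Snai2 in 6 of the 10 fits that leave out a library, and the largest adjusted p were 0.0887 (without 10 µM replicate 1) and 0.0711 (without 50 µM replicate 2).

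Id2, an inhibitor of basic helix-loop-helix factors and a BMP target, was the 1 called gene among 28 BMP targets and pathway genes. It read 149, 162, 159, 151 and 148 CPM at 10 µM and 222, 229.9, 196, 212 and 196 CPM at 50 µM, with a gap between 162 and 196 CPM. The log2 difference was 0.46 ± 0.07 (adjusted p = 0.0173), called in 5 of the 10 leave-one-out fits. Of the 28 genes 23 had a positive difference, 2 did not overlap, and the median was 0.17. At an unadjusted p under 0.05 were 9 higher and 1 lower. The 9 included Id1 (0.48 ± 0.10, adjusted p = 0.0966), Id3 (0.41 ± 0.08, 0.0963), the helix-loop-helix factor Atoh8 (0.47 ± 0.11, 0.170), the homeobox gene Msx2 (0.43 ± 0.13, 0.474) and the inhibitory Smad genes Smad6 (0.25 ± 0.08, 0.547) and Smad7 (0.34 ± 0.12, 0.630). The lower one was Nog, which encodes the BMP antagonist noggin (-0.29 ± 0.11, 0.681). Without 10 µM replicate 3, 4 genes of the list were called higher, with adjusted p of 0.009 for Id1 and 0.014 for Id3, and without both replicates 3 and 4 of that dose 2. No gene of the list was called without 10 µM replicate 1 or 5 or without 50 µM replicate 1, 2 or 4.

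Tubulin mRNAs were lower at 50 µM. Of 13 genes listed 12 were tested (Tuba8 did not pass the filter on low counts), all 12 had a negative difference, 4 fell, 7 did not overlap, and 11 had an unadjusted p under 0.05. Their median was -0.49 and their range -0.86 to -0.16. Alpha and beta tubulins pair into the dimers of microtubules, and both kinds were among the genes that fell. Members have near-identical coding sequences, so the assignment of reads between them is uncertain and single members are less firm than the group.

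The alpha tubulin Tuba1b read 698, 736, 768, 687 and 658 CPM at 10 µM and 540.0, 508, 515, 572 and 505 CPM at 50 µM. Its neighbour Tuba1a read 376, 434, 463, 363 and 338 CPM at 10 µM and 284, 268, 266, 289.7 and 231 CPM at 50 µM. In both, 10 µM replicate 3 was the highest library, and all 50 µM libraries lay below all 10 µM libraries. The log2 differences were -0.43 ± 0.06 for Tuba1b (adjusted p = 0.0193) and -0.56 ± 0.09 for Tuba1a (adjusted p = 0.0314). Of the beta tubulins, Tubb2a read 45.5, 51.6, 65.5, 41.3 and 54.9 CPM at 10 µM and 30.999, 33.2, 37.2, 28.7 and 34.5 CPM at 50 µM. Tubb2b read 168, 183, 226, 169 and 181 CPM at 10 µM and 135, 135, 123, 141 and 133 CPM at 50 µM. Both fell, by 0.65 ± 0.12 (adjusted p = 0.0486) and by 0.48 ± 0.08 (adjusted p = 0.0486) on the log2 scale.

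Tubb4b (-0.47 ± 0.09, adjusted p = 0.0520), Tubb5 (-0.36 ± 0.07, 0.0677) and Tubb6 (-0.61 ± 0.12, 0.0724) did not overlap between the doses and just missed the threshold. Tuba1c (-0.72 ± 0.15), Tubb4a (-0.48 ± 0.13), Tubb3 (-0.86 ± 0.27) and Tuba4a (-0.51 ± 0.17) overlapped. Tubg1, the gamma tubulin that seeds microtubules rather than building them, had the smallest difference, -0.16 ± 0.10 (adjusted p = 0.761). Without 10 µM replicate 3, 7 tubulins were called lower, and without replicate 4, 5. No tubulin was called without 10 µM replicate 1 or 2 or without 50 µM replicate 1, 2 or 5, and 1 was called without 50 µM replicate 3 or 4. The 4 called tubulins were called in 1 to 5 of the 10 fits that leave out a library, Tuba1b most often. Over all leave-one-out fits the list median stayed between -0.54 and -0.40. The mean log2 level of the tested tubulins relative to vehicle ran from -0.21 to 0.29 in the 10 µM libraries and from -0.63 to -0.40 in the 50 µM libraries.

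**Figure D4:**
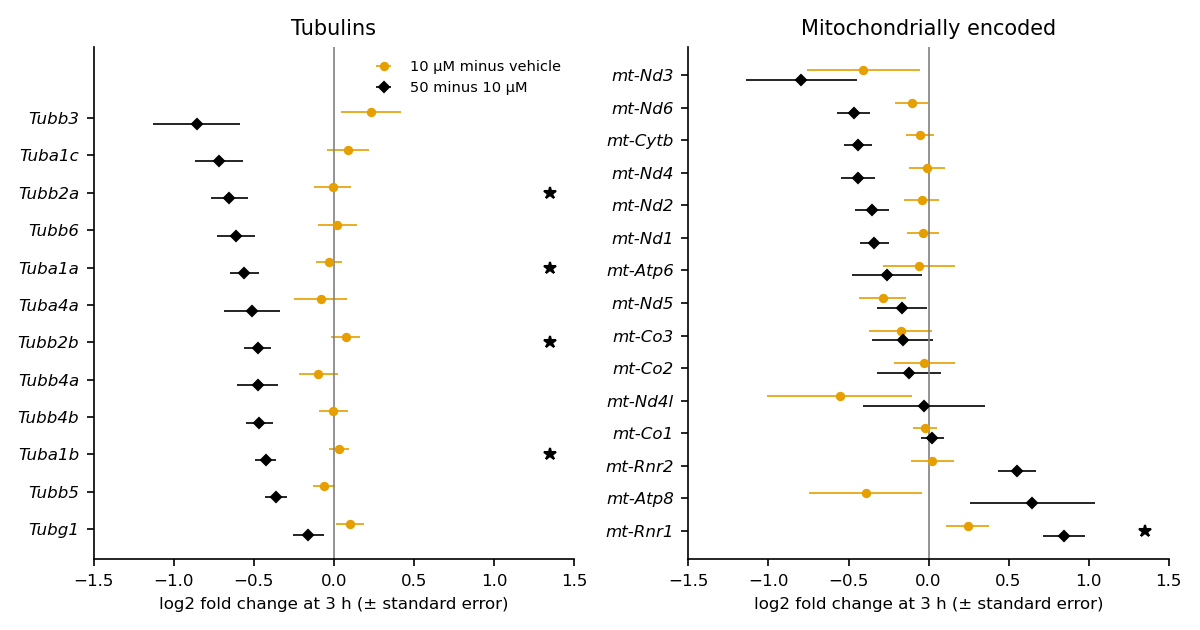
Fitted log2 differences (± SE) of the tubulins and the mitochondrially encoded genes at 3 h, for 10 µM minus vehicle (orange) and 50 minus 10 µM (black), with a star at each gene called between the doses. Every tubulin lies left of 0 between the doses, while mt-Rnr1 and mt-Rnr2 lie to the right and most mitochondrial mRNAs to the left.

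Of 15 transcripts of the mitochondrial genome tested, 1 was called. The small ribosomal RNA mt-Rnr1 read 414, 576, 608, 433 and 391 CPM at 10 µM and 937, 972, 746, 972 and 722 CPM at 50 µM. It rose by 0.85 ± 0.13 on the log2 scale (adjusted p = 0.0212), although the 10 µM libraries themselves spread from 391 to 608, and was called in 4 of the 10 fits that leave out a library. The large ribosomal RNA mt-Rnr2 differed by 0.55 ± 0.12 (adjusted p = 0.125) with overlap. Among the protein-coding genes, 6 had a lower level at an unadjusted p under 0.05, being cytochrome b and 5 complex I subunits: mt-Cytb (-0.44 ± 0.09, adjusted p = 0.0773), mt-Nd6 (-0.47 ± 0.10, 0.125), mt-Nd4 (-0.44 ± 0.11, 0.224), mt-Nd1 (-0.34 ± 0.09, 0.354), mt-Nd2 (-0.35 ± 0.10, 0.463) and mt-Nd3, which was read below 1 CPM. The cytochrome oxidase gene mt-Co1 differed by 0.02 ± 0.07. Over the 15 genes the median was -0.17 with 4 positive and 11 negative differences. That median was -0.28 without 50 µM replicate 3, -0.26 without 10 µM replicate 5 and -0.25 without 10 µM replicates 3 and 4. There was 1 transcript called lower without 10 µM replicate 3, and without replicate 4 of that dose none was called in either direction. mRNA was purified on poly-T beads, so the level read for a ribosomal RNA also reflects its capture on the beads, which was not measured. None of 28 nuclear-encoded respiratory chain subunits was called (median -0.12, -0.05 without 10 µM replicate 3 and -0.06 without 50 µM replicate 3).

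Srsf3 encodes a serine and arginine rich splicing factor that regulates its own splicing. It read 624, 661, 578, 644 and 648 CPM at 10 µM and 512, 487, 470.3, 494 and 458 CPM at 50 µM. All 50 µM libraries lay below all 10 µM libraries, and Srsf3 fell by 0.38 ± 0.06 on the log2 scale (adjusted p = 0.0314), called in 1 of the 10 leave-one-out fits. It was the 1 called gene of 18 SR factors and their kinases, of which 17 had a negative difference with a median of -0.11. Without 50 µM replicate 1 that median was -0.06, and 1 of the 18 in place of 4 had an unadjusted p under 0.05. Srsf2 (-0.19 ± 0.07), Clk2 (-0.21 ± 0.09) and Srpk1 (-0.20 ± 0.09) had unadjusted p under 0.05 and adjusted p of 0.679, 0.700 and 0.702.

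Ankrd37, an ankyrin repeat gene induced by hypoxia, had the largest difference of all called genes. Its levels were low, 3.60, 5.15, 3.97, 3.85 and 3.25 CPM at 10 µM and 1.37, 1.94, 1.59, 2.21 and 1.47 CPM at 50 µM, without overlap. The log2 difference was -1.20 ± 0.22 (adjusted p = 0.0486), and the gene was called in 1 of the 10 fits that leave out a library. Of 24 hypoxia and glycolysis genes 18 had a negative difference, 3 did not overlap and 7 had an unadjusted p under 0.05 (median -0.16, and -0.08 without 10 µM replicates 3 and 4). In this list 2 genes were called lower without 10 µM replicate 3 and 1 without 50 µM replicate 3. None was called with any other single library left out, or with median-of-ratios or upper-quartile scaling. The glycolytic regulator Pfkfb3 followed (-0.57 ± 0.10, adjusted p = 0.0520), and then the mitochondrial protein Higd1a (-0.49 ± 0.12, 0.234) and the glycolytic kinase Pgk1 (-0.30 ± 0.10, 0.609).

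Rdh11, a retinal reductase, read 60.9, 57.4, 62.0, 58.1 and 60.2 CPM at 10 µM and 80.4, 78.7, 73.2, 77.0 and 77.0 CPM at 50 µM. The replicates were tight and apart, and Rdh11 rose by 0.37 ± 0.06 on the log2 scale (adjusted p = 0.0486). It was called in 1 of the 10 fits that leave out a library. The other 17 genes of the retinoic acid pathway were not called. Cyp26b1, the enzyme that clears retinoic acid from the distal limb, differed by 0.22 ± 0.07 without overlap (adjusted p = 0.466). The list median was -0.05, and 0.02 without 10 µM replicate 3.

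Cdkl3, a kinase of the cyclin-dependent kinase-like family, read 10.0, 9.54, 9.64, 9.68 and 8.68 CPM at 10 µM and 12.7, 15.3, 14.5, 14.6 and 13.8 CPM at 50 µM and rose by 0.58 ± 0.10 on the log2 scale (adjusted p = 0.0486), called in 1 of the 10 leave-one-out fits. Snhg4, a host transcript of small nucleolar RNAs that falls outside the rule for named genes and was added after its values were seen, averaged 7.05 ± 0.909 CPM at 10 µM and 3.99 ± 0.349 CPM at 50 µM. It fell by 0.82 ± 0.15 (adjusted p = 0.0486) and was called in none of the 10 fits that leave out a library.

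Endoplasmic reticulum chaperones, which fold secreted proteins, had no called member. Of 20 tested, 15 had a positive difference, 10 had an unadjusted p under 0.05, all of them higher, and 3 did not overlap, with a median of 0.18. Without 10 µM replicate 3, 1 was called higher. The integrated stress response, which Ddit3 and Trib3 report, had a median of 0.03 over 18 genes and no member at an unadjusted p under 0.05. Its mean level was highest in 10 µM replicate 3, the library that stood apart. Ddit3 averaged 28.6 ± 4.54 CPM at 10 µM and 30.2 ± 4.62 CPM at 50 µM (log2 difference 0.08 ± 0.13). Of 13 amino acid transporters none was called, and 5 had an unadjusted p under 0.05 in the higher direction. They include Slc7a1 (0.33 ± 0.07, adjusted p = 0.124), a cationic amino acid carrier, and Slc7a5 (0.31 ± 0.07, 0.148), a carrier of large neutral amino acids.

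No gene fixed for skeletal differentiation or for the estrogen, estrogen-related and dioxin receptors was called. The cartilage regulator Sox9 differed by 0.06 ± 0.09, collagen Col2a1 by 0.06 ± 0.06 and aggrecan Acan by 0.13 ± 0.10. Of later stages, Ihh differed by 0.10 ± 0.10, Col10a1 by 0.14 ± 0.20, and the bone regulators Runx2 and Sp7 by -0.13 ± 0.12 and 0.23 ± 0.12. No member of 24 chondrocyte matrix genes (median 0.01), 22 hypertrophic and bone genes or 29 limb patterning genes was called. Estrogen receptor genes Esr1 and Esr2 differed by 0.28 ± 0.34 and -0.72 ± 0.53. Both were read low, at no more than 2.95 and 1.21 CPM in any library of the comparison. The related receptor Esrra differed by -0.26 ± 0.16, and the dioxin receptor Ahr by 0.23 ± 0.15. Its target Cyp1a1 differed by -0.57 ± 0.26 and Cyp1b1 by 0.02 ± 0.25. The proliferation marker Mki67 differed by 0.09 ± 0.08 and the p53 target Cdkn1a by -0.18 ± 0.12. Lists for mitosis, DNA replication, p53, NRF2, the aryl hydrocarbon receptor and estrogen receptors held 0 called genes. The 30 cytosolic ribosomal protein genes all had a negative difference with 0 called, and their median moved from -0.13 to -0.03 without 10 µM replicate 3.

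Markers of 7 other cell types of the limb were measured beside these results, and none of their members was called. Summed muscle markers (22 of 25 tested) ran from 2013 to 2623 CPM at 10 µM and from 2036 to 2242 at 50 µM. Endothelial markers ran from 683 to 759.9 and from 704 to 737 CPM, and macrophage markers from 97.9 to 169 and from 110.2 to 124. Epidermal markers spread from 610 to 1072 and from 708 to 994 CPM, and red cell markers from 1844 to 3268 and from 1758 to 2735. Nerve markers lay at 225 to 248 and 215 to 233 CPM, and pericyte markers at 566 to 600 and 581 to 629. In all 7 the ranges of the doses overlapped, and no marker in the tables was at 0 in either group. Single muscle markers leaned lower: 18 of 22 had a negative difference and 5 had an unadjusted p under 0.05, all lower, against 3.62% lower over all genes, with a median of -0.13. Relative to vehicle the muscle medians were 0.20 at 10 µM and 0.02 at 50 µM. Of 14 nerve and glia markers 3 were lower at an unadjusted p under 0.05, with a median of -0.16. Tubb3 is among them and is also counted with the tubulins above. Their part in the gene results was not tested.

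The vehicle libraries place both doses. These comparisons share libraries with the one above, so their values are given side by side only. Between 10 µM and vehicle no gene was called by edgeR (smallest adjusted p 0.0635), while 974 had an unadjusted p under 0.05 and DESeq2 called 14. Between 50 µM and vehicle 239 genes were called (1.41% of those tested), 151 higher and 88 lower. Sex-linked genes differed as well. All 4 Y-linked genes were lower at 50 µM at an unadjusted p under 0.05, and 1 was called. Their median was -0.73, and Xist, the X inactivation transcript, was higher by 0.63 at an unadjusted p under 0.05. At 10 µM against vehicle these values were -0.94 and 0.60, with none at an unadjusted p under 0.05. The part of sex-linked content in the calls against vehicle was not tested. For the cholesterol enzymes the medians were 0.32 at 10 µM and 0.77 at 50 µM relative to vehicle, with 0 and 18 of 21 called. Dhcr7 averaged 50.4 ± 3.06 CPM in vehicle, and its differences were 0.51 at 10 µM and 1.15 at 50 µM. In the same order, with the low 10 µM replicate 3 (13.5 CPM) in the first value, Idi1 differed by 0.12 and 1.01, and Snai2 by 0.07 and 0.56.

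Tubulins stood near the vehicle level at 10 µM (median 0.01, 0 of 12 at an unadjusted p under 0.05) and below it at 50 µM (median -0.58, 10 called lower). Tuba1b averaged 692 ± 32.8 CPM in vehicle and differed by 0.03 at 10 µM and -0.39 at 50 µM. For mt-Rnr1 the values were 0.24 and 1.09, and for Srsf3 -0.11 and -0.49. The integrated stress response list had medians of 0.27 and 0.23. Its mean log2 level relative to vehicle was 0.60 in 10 µM replicate 3 and 0.09 to 0.34 in the other libraries of that dose. At 50 µM it ran from 0.15 to 0.47, and in vehicle from -0.26 to 0.25. Of the 28 BMP genes 8 were called higher and 1 lower at 50 µM against vehicle, and of the 20 chaperones 9 were called.

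The same dose comparison after 24 and 48 h uses other libraries. Between the doses 126 genes were called at 24 h (0.75% of those tested) and 556 at 48 h (3.29%). Of the 21 genes called at 3 h, 5 were called in the same direction at 24 h (23.8% of the 3 h calls and 3.97% of the 24 h calls), namely Scd1, Cdkl3, mt-Rnr1, Tubb2a and Tubb2b. At 48 h there were 4 (19% and 0.719%), namely Scd1, Snai2, Id2 and mt-Rnr1. None was called in the opposite direction at either time. mt-Rnr1 had log2 differences of 0.79 at 24 h and 1.10 at 48 h, and Scd1 of 0.34 and 0.29.

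Whether the dose difference itself changed with time was tested in 1 fit for each later time. Between 48 h and 3 h it differed in 110 genes (0.589% of those tested), and 9 of the 21 genes called at 3 h were among them. Those 21 were chosen by their 3 h difference, which the tests for both later times also use. That choice favours a smaller difference later, so their share cannot be set against that of all genes. The change was called lower in 4 of 21 cholesterol enzymes and 2 of 18 fatty acid genes: for Idi1 the difference went from 0.89 to -0.03 (48 h minus 3 h -0.92 ± 0.19), Cyp51 from 0.64 to 0.23 (-0.41 ± 0.09), Sqle from 0.45 to 0.07 (-0.37 ± 0.09) and Scd1 from 0.83 to 0.29 (-0.54 ± 0.13). The tubulins Tuba1a (0.55 ± 0.11), Tuba1b (0.44 ± 0.10) and Tubb2a (0.62 ± 0.13) lay closer to 0 at 48 h. Tubb5, not called at 3 h, changed sign, from -0.36 to 0.23 (0.60 ± 0.08). Between the doses at 48 h 1 tubulin was called higher and 1 lower. Over the 21 cholesterol enzymes the median between the doses was 0.45 at 3 h, 0.09 at 24 h and 0.07 at 48 h, with 0 called at both later times. Over the tubulins it was -0.49, -0.10 and -0.03. Between 24 h and 3 h no gene passed (smallest adjusted p 0.067, that of Idi1 at -1.02), while 1080 genes and 15 of the 21 had an unadjusted p under 0.05, and DESeq2 called 10. For Dhcr7 (0.29 at 48 h, adjusted p of the change 0.232) and Snai1 (0.22, 0.428) no change between 3 and 48 h was shown.

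**Figure D5:**
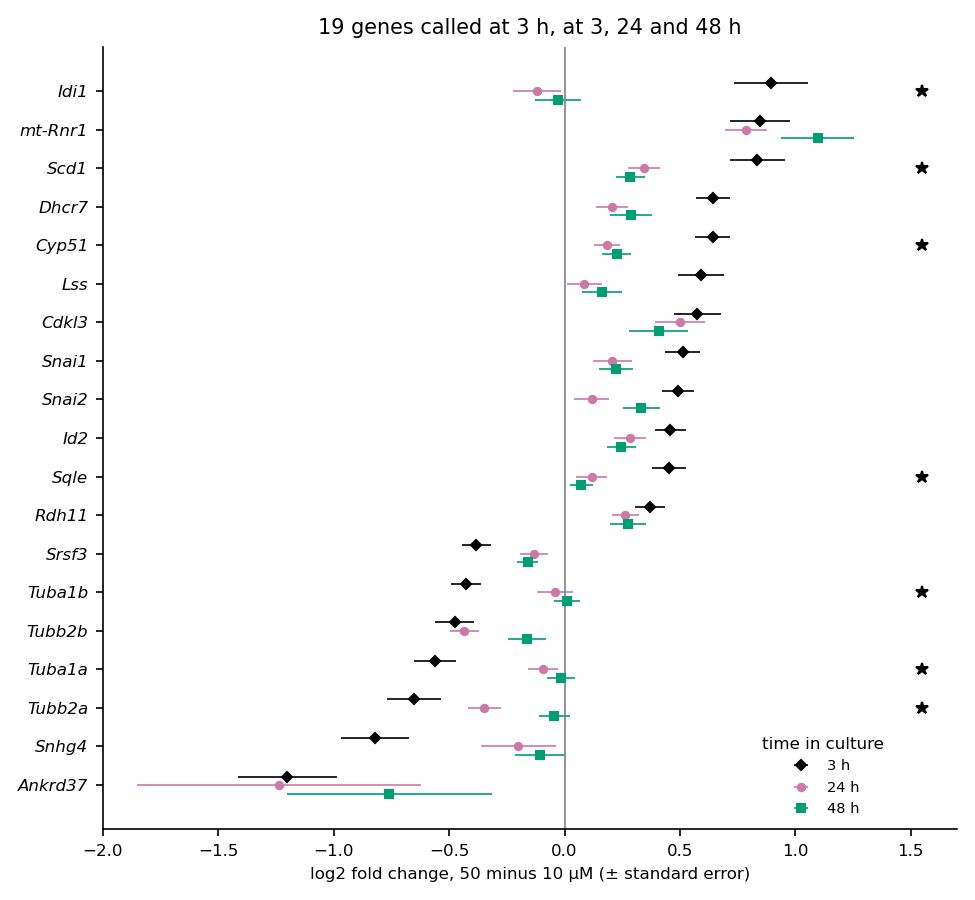
Fitted log2 differences between 50 and 10 µM (± SE) of 19 called genes at 3, 24 and 48 h, with a star where the difference between 48 and 3 h was itself called. Idi1 and Sqle lie near 0 at 48 h, while mt-Rnr1 lies at 0.79 at 24 h and 1.10 at 48 h.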

How the data were processed

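The values are counts of reads per gene, which the authors deposited as tables per dose and time; bases were called with CASAVA 1.8, reads aligned to mm10 with STAR 2.5 and counted with HTSeq 0.6.1, and DESeq2 is also named, per the submitters' processing notes. The strand setting of the counting was not stated in these sources, so overlapping and antisense genes are uncertain. The 3 h tables of 50 and 10 µM held 31290 and 31101 genes, and 29732 in both were joined; 442570 vehicle values present in more than 1 table were identical, and 24 symbols turned into dates were restored from GENCODE M21.

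Counts were fitted in R 4.3.3 with edgeR 4.0.16 (TMM scaling, filterByExpr with a minimum count of 10 and total of 15, quasi-likelihood F-test, Benjamini-Hochberg adjusted p under 0.05) on the 10 libraries of the 2 groups compared. Standard errors were taken from the F statistic, as the size of the log2 difference over the root of F. Changes of the dose difference with time were interaction terms. DESeq2 1.42.0, limma 3.58.1 (voom weights per library), other scalings, filters, fits over 15 and 45 libraries, a Y-linked covariate and leaving out each library were alternatives; the filter by the blocked design, the voom weights and the settings that leave out 10 µM replicates 3 and 4 together or keep the same genes were chosen after seeing the data. The scripts were tested on simulated data. CPM per library used TMM-scaled totals of the 15 libraries of 3 h. The deposited counts summed to 18070414 to 24278672 per library of the comparison, so genes under about 1 CPM rest on few reads.

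Genes named were the up to 15 protein-coding called genes with the largest rise and fall with a mean count of at least 50 and groups that do not overlap, up to 4 called members of each list, the members of the 2 sterol lists (of sterol regulation and uptake the text gives 4, and the rest by counts), a fixed set (skeletal, receptor, sex-linked), and the top 5 by p from each time test. Of the sex-linked set the text names Xist and gives the Y-linked genes as a list. Other list members are given as examples by p. Members and lists were chosen with earlier results of these data known. Promoter windows are from RefSeq (GRCm38.p6), and windows missing for some list members were not used here. Results for some genes are not reported here, although they are counted in the totals and lists.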

Additional observations from a re-analysis of the deposited data

Results flagged for a closer look

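Of 58 sets of 5 values examined for a library apart from its group, 3 stood out; chance gives about 1 in 20. Replicate 3 at 10 µM lay at 64.5 on the first principal component, where the next library of its group lay at 4.77. The same library had the highest Tubb2b level at 10 µM, 226 CPM against 183 in the next. Within the 50 µM group, replicate 3 had the largest SD of deviation from the group's gene means, 0.452 against 0.382 in the next library of that group (log2), where 10 µM replicates 3 and 4 had 0.581 and 0.458.

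The difference between 50 and 10 µM was not the same at 48 h as at 3 h in 110 genes by edgeR's interaction test. Among lipid genes called at 3 h the difference at 48 h minus that at 3 h was -0.92 for Idi1, -0.54 for Scd1, -0.41 for Cyp51 and -0.37 for Sqle (log2). For the tubulins it was 0.62 for Tubb2a, 0.55 for Tuba1a and 0.44 for Tuba1b. Both sets were chosen by the 3 h difference that the test also uses, which favours a smaller difference later. The 5 genes of smallest p in this test were AW551984 (-1.10), Atp1b4 (-2.68), Tubb5 (0.60), Myom1 (-1.22) and Myh7b (-1.76). Myom1 and Myh7b encode sarcomere proteins, and Atp1b4 is a muscle protein of the sodium pump beta family.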

How the results depend on the processing

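The 21 genes called between 50 and 10 µM at 3 h kept their direction in all 23 other settings. That was largely fixed in advance, as their libraries did not overlap between the doses, and their number did not hold. It was 87 with DESeq2, 45 with the 15 libraries of 3 h in 1 fit, 120 with all 45, and 7 with the Y-linked covariate. It was 4 to 44 with a library left out, 44 without 10 µM replicate 3 on the same genes, and 64 with a weight per library. Median-of-ratios and upper-quartile scaling gave 17 and 15, no filter 28, a filter of 1 CPM in 5 libraries 16, and 10 µM replicates 3 and 4 both out 24. Same-numbered libraries deviated from their group means with correlations of 0.141, -0.003, -0.242, -0.057 and 0.124, and 2 of 5 correlated best with their own number. These 5 values are too few to decide whether the numbers pair the libraries, and the main fit did not take them as pairs. With a replicate block 0 genes were called (0 with the filter of the blocked design), 15 of the 21 cholesterol enzymes and 11 of 12 tubulins keeping an unadjusted p under 0.05; at 24 h the replicate block gave 453 and in the test of 24 h against 3 h 1. DESeq2 called 14 genes between 10 µM and vehicle, 531 between 50 µM and vehicle, 322 at 24 h, 964 at 48 h, 10 for the change from 3 to 24 h and 214 for that to 48 h. With edgeR these were 0, 239, 126, 556, 0 and 110, and with a library left out 0 to 5, 141 to 289, 62 to 172, 347 to 614, 0 to 4 and 87 to 107. The hypoxia list's median was -0.085 without 10 µM replicates 3 and 4. For named genes 1448 values were called or left uncalled as in the main fit, 48 gained a call and 205 lost one. The 205 all belong to the 21 called genes over the 23 other settings. No gene called in either fit changed direction, and changes of direction of uncalled genes were not counted. The causes were not tested.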

Other observations

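Just outside the threshold lay genes of other kinds, named here after their values were seen. Klf2, a shear-responsive factor of endothelium, averaged 19.6 ± 3.98 CPM at 10 µM and 11.5 ± 1.58 CPM at 50 µM (SD, n = 5 each), with a log2 difference of -0.76 ± 0.14 (edgeR adjusted p = 0.0627) and no overlap. Cx3cr1, the fractalkine receptor of macrophages, differed by -0.74 ± 0.14 (adjusted p = 0.0611), and Dlx3, a homeobox gene of limb ectoderm, by 0.59 ± 0.12 (adjusted p = 0.0773), both without overlap. Summed macrophage markers ranged from 97.9 to 169 CPM at 10 µM and from 110.2 to 124 at 50 µM, and epidermal markers from 610 to 1072 and from 708 to 994. Their part in these differences was not tested. Among other immediate early genes, Nr4a1 differed by -0.34 ± 0.11 (adjusted p = 0.583) and Arc by -0.91 ± 0.29 (adjusted p = 0.547), with overlapping libraries. Muscle markers had a median of -0.13 and 0 of 22 called between the doses at 3 h. At 24 h their median was -0.45 with 8 of 23 tested called lower, against 85 of all 16798 genes. At 48 h it was -0.93 with 18 of 24 called lower, against 367 of all 16875 genes. Relative to vehicle at 3 h the medians of this list were 0.20 at 10 µM and 0.02 at 50 µM. The 3 h value between the doses thus went with a higher level at 10 µM, highest in replicate 3 (mean log2 level 0.31).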
